A study of Mus musculus with 18 samples.

Results

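The mRNAs of the 6 mouse peroxiredoxins, Prdx1 to Prdx6, and of sulfiredoxin, Srxn1, were followed through primary cultures of mouse Leydig cells in which Prdx1 had been silenced. The members were the 7 rows of the count table with these symbols, out of 55487 genes, and all 7 were among the 16432 genes expressed enough to be tested. Cells carried an siRNA against Prdx1 (siprdx1) or a control siRNA (siNC). Both siRNAs were combined with 3 treatments, giving 6 groups of 3 libraries. Untreated cells had 0.1% DMSO for 6 h. Peroxide-treated cells had 200 µM hydrogen peroxide (H2O2) for 30 min before the 6 h in 0.1% DMSO. Fluvastatin-treated cells had the same H2O2, followed by 6 h in 5 µM of the statin fluvastatin (FV). The labels record no DMSO for the fluvastatin groups, and none of the groups received fluvastatin without H2O2. Whether the 3 replicates of a group came from separate animals is not stated, so p-values measure the spread between these cultures only. The comparison of siprdx1 with siNC asks whether other members of the family changed in level when Prdx1 was low.

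Peroxiredoxins are thiol peroxidases. A reactive cysteine takes up the oxygen of a peroxide, and in most members a further cysteine closes a disulfide that thioredoxin then reduces. At high peroxide the reactive cysteine of the typical members can be overoxidised to a sulfinic acid, which stops the enzyme, and sulfiredoxin spends ATP to reverse this. Prdx1 and Prdx2 are the cytosolic typical members, Prdx3 is the mitochondrial one and Prdx4 is the one of the endoplasmic reticulum. Prdx5 is atypical and forms its disulfide within 1 chain, and Prdx6 has a single reactive cysteine and is reduced by glutathione. Leydig cells produce H2O2 beside steroid synthesis, and peroxiredoxins are among the enzymes that clear it.

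The genes lie apart in the genome (GRCm38, the mm10 assembly). Prdx1 (ENSMUSG00000028691) spans chr4:116685544-116700822, Prdx2 (ENSMUSG00000005161) chr8:84969587-84974834 and Prdx3 (ENSMUSG00000024997) chr19:60864051-60874556. Prdx4 (ENSMUSG00000025289) spans chrX:155323918-155340754, Prdx5 (ENSMUSG00000024953) chr19:6906697-6910106 and Prdx6 (ENSMUSG00000026701) chr1:161240112-161251219. Srxn1 (ENSMUSG00000032802) spans chr2:152105516-152111376. Prdx1 and Srxn1 are known targets of NRF2, a transcription factor that binds the antioxidant response element, whose core reads TGACNNNGC. The 250 bases upstream of the RefSeq start (GRCm38.p6) of the 6 members with an entry were searched on both strands for this core and for the related TGAGNNNGC. The Srxn1 window held 2 matches and the Prdx1 window 1, while those of Prdx2, Prdx3, Prdx4 and Prdx5 held 0, and there was no entry for Prdx6. Of 32851 promoter windows of the same length, 23% held at least 1 match and 3.18% at least 2. The Prdx1 and Srxn1 windows are shown because these genes carried the matches, each from the first base of the window to the base before the GENCODE start, 5′ to 3′ on the plus strand, with the matches in capitals. Prdx1 is shown for chr4:116685349-116685543 (195 bases) and Srxn1 for chr2:152105274-152105515 (242 bases).
Prdx1: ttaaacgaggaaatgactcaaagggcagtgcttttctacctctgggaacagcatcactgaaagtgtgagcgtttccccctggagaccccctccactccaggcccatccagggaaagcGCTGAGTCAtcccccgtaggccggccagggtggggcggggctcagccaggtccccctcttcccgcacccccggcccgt
Srxn1: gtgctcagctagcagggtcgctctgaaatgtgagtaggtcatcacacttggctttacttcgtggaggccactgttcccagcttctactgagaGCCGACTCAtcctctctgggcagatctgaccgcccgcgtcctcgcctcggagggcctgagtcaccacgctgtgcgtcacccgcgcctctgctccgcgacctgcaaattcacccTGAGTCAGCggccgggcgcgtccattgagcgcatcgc
The Prdx1 match lies 133 to 125 bases before the RefSeq start on the minus strand and is of the TGACNNNGC form. The Srxn1 matches are of the TGAGNNNGC form and lie 158 to 150 bases before the start on the minus strand and 45 to 37 bases before it on the plus strand. A match of letters does not show that a factor binds there.

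Libraries held 15201530 to 23898435 counts, and members had between 1705 counts (Prdx4) and 36115 counts (Prdx1) in any 1 library. Not all Leydig markers were expressed. Cyp11a1, the enzyme that starts steroid synthesis, averaged 712 CPM (counts per library size after TMM scaling, set to a common total), but Cyp17a1 and Hsd17b3 averaged 0.0318 and 0.067 CPM. Summed over their lists, 9 macrophage markers held 7541 to 9660 CPM and 6 fibroblast markers 15020 to 19620 CPM, against 999.8 to 1508 CPM for the 9 Leydig markers. The 5 Sertoli markers held 1111 to 1416 CPM. Single genes weigh heavily in such sums, with Lyz2 of the macrophage list at 5677 CPM and Clu of the Sertoli list at 1230 CPM on average. Sums of unlike genes do not give the share of each cell type. All of the macrophage and fibroblast markers passed the filter, while 0 of 6 erythrocyte markers did, with a sum of at most 0.321 CPM. In bulk RNA, fewer cells of a type and less RNA per cell cannot be told apart.

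In siNC cells without H2O2, Prdx1 was the most abundant member for its length, at 436 ± 13.9 CPM per kb of exon (SD, n = 3). Prdx5 followed with 140.2 ± 15.3 CPM per kb. Prdx3 (74.3 ± 2.48), Prdx2 (68.7 ± 7.36) and Srxn1 (63.8 ± 0.775 CPM per kb) came next, and the Prdx2 libraries overlapped those of both neighbours. Prdx4 had 52.8 ± 0.884 and Prdx6 24.4 ± 0.336 CPM per kb. The middle of this order depends on the length used. Per kb of the longest transcript Prdx2 had 130.0, Prdx4 109 and Srxn1 64.0 CPM per kb, while Prdx1 (579) and Prdx5 (164) stayed first and second.

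**Figure D1:**
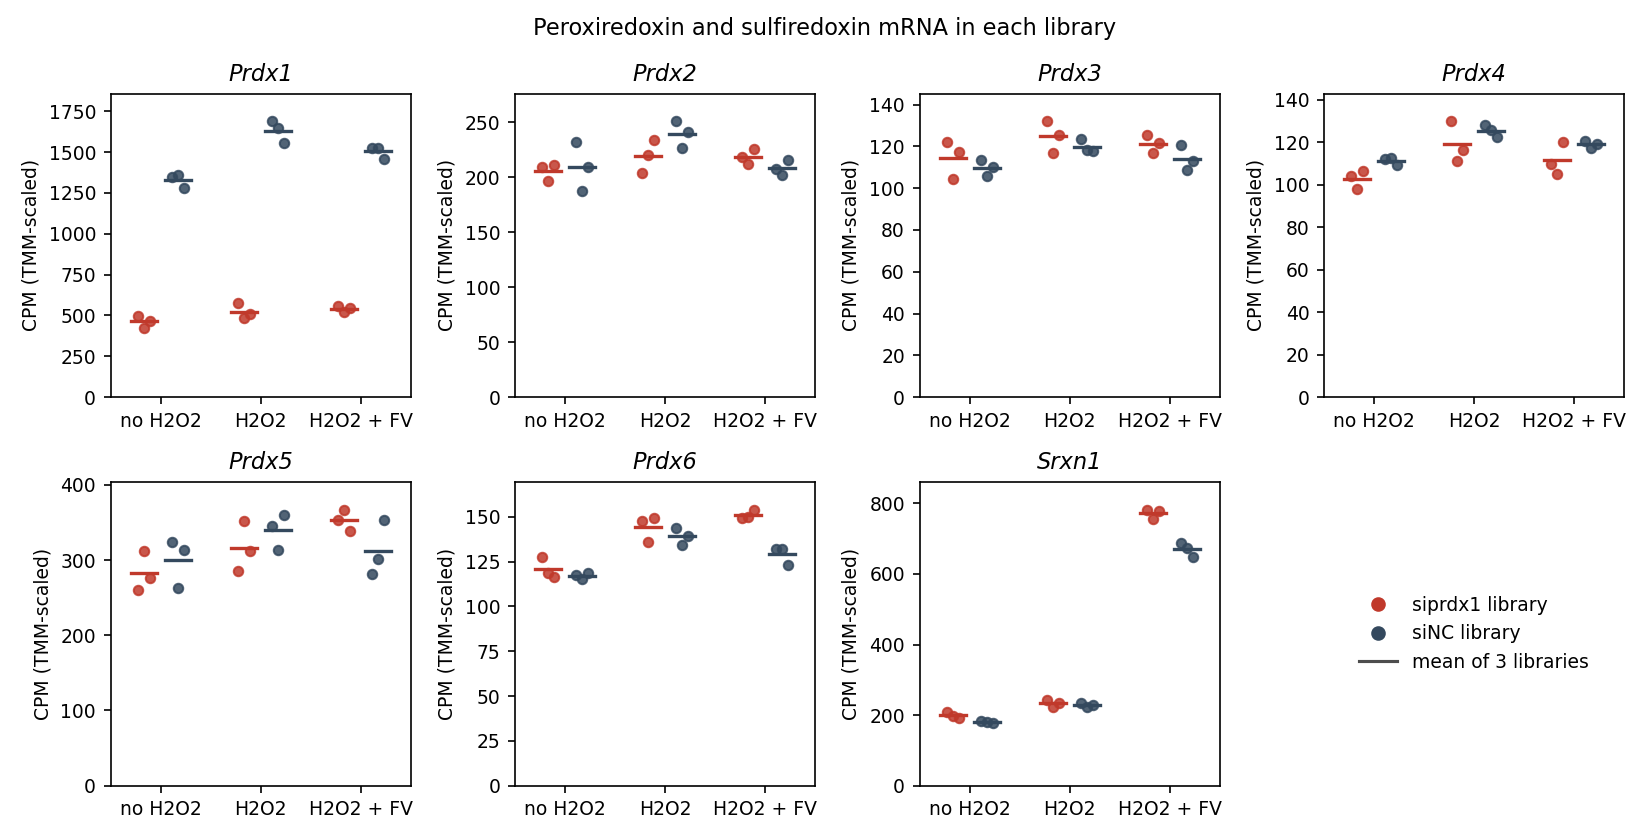
Level of each member in CPM (y axis, from 0) in every library by treatment (x axis), with siprdx1 in red left of siNC in blue and a bar at the mean of 3 libraries. Prdx1 is lower in every siprdx1 library, Srxn1 stands at 649 CPM or more in the fluvastatin groups, and most other groups overlap.

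The siRNA lowered Prdx1 in every treatment. Without H2O2, siprdx1 libraries held 498, 426 and 468 CPM of Prdx1, against 1345, 1358 and 1279 CPM in siNC libraries. With H2O2 the siprdx1 libraries held 576, 485 and 511 CPM, against siNC libraries at 1690, 1648 and 1558 CPM. With H2O2 and fluvastatin they held 559.9, 519 and 547 CPM, against siNC libraries at 1524, 1528 and 1460 CPM. The highest siprdx1 library was below the lowest siNC library of any treatment. Averaged over treatments the log2 fold change was -1.54 ± 0.04 (SE), a change of -65.7% with a 95% interval of -67.4% to -63.8% (edgeR quasi-likelihood test, Benjamini-Hochberg adjusted p = 2.94e-18). The processed pseudogenes Gm21399 and Gm7204 are 98.3% and 97.5% identical to Prdx1 over 597 bp, so their reads may be shared with it. Gm21399 held 8.10 ± 0.759 CPM in siprdx1 and 28.8 ± 6.27 CPM in siNC without H2O2 (SD, n = 3 each). Prdx2-ps1 and Prdx6b, near copies of Prdx2 and Prdx6, had at most 12 and 2 counts in any library.

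Without H2O2, none of the other members passed the test between siprdx1 and siNC. In this comparison 0 of 6 passed in edgeR, where 2.33% of all 16432 genes did, 1 of 6 had an unadjusted p under 0.05, and DESeq2 called that same 1, Srxn1 (adjusted p = 0.0387). Prdx2, the other cytosolic member, held 209.6, 196 and 211 CPM in siprdx1, against 232, 187 and 209.5 CPM in siNC. Its log2 fold change was -0.03 ± 0.07 and its 95% interval of -10.9% to 8.02% covers modest changes both ways. Prdx3 held 122, 104 and 117 CPM in siprdx1, against 113, 106 and 110.2 CPM in siNC (log2 fold change 0.06 ± 0.06). The groups overlapped for both genes. Prdx4 held 104, 97.9 and 107 CPM in siprdx1, each below the 112, 113 and 109 CPM of siNC, with a log2 fold change of -0.11 ± 0.06 (edgeR adjusted p = 0.515). Prdx5 held 260.4, 312 and 276 CPM in siprdx1, against 324, 263 and 313 CPM in siNC, with overlap. Prdx6 held 128, 118 and 116 CPM in siprdx1, against 117, 115 and 119 CPM in siNC (log2 fold change 0.05 ± 0.05). Srxn1 held 207, 197 and 193 CPM in siprdx1, all above the 182, 180.1 and 178 CPM of siNC, with a log2 fold change of 0.15 ± 0.05 (edgeR adjusted p = 0.13). With scaling by library size alone Srxn1 passed in edgeR too, at 0.18 (adjusted p = 0.0387).

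After H2O2 the knockdown moved none of the other members past the threshold. In edgeR 0 of 6 passed, where 2.73% of all genes did, and 0 of 6 had an unadjusted p under 0.05 or passed in DESeq2. Srxn1 held 243, 223 and 234 CPM in siprdx1+H2O2, against 235, 224 and 228 CPM in siNC+H2O2, so the groups overlapped. Its log2 fold change was 0.03 ± 0.05, with a 95% interval of -4.69% to 8.98%. Prdx2 held 204, 220.4 and 234 CPM in siprdx1+H2O2, against 251, 227 and 241 CPM in siNC+H2O2 (log2 fold change -0.13 ± 0.07, edgeR adjusted p = 0.41). Prdx2 shares 173 bp of exon with Junb and 177 bp with Rnaseh2a on the opposite strand, and whether strand was used in counting is not given in the sources used here, so its counts are uncertain. Junb, an immediate early transcription factor, averaged 153 CPM in siprdx1+H2O2 and 194 CPM in siNC+H2O2 (log2 fold change -0.34 ± 0.09, edgeR adjusted p = 0.0331). The part of Junb reads in the Prdx2 values was not tested.

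After H2O2 and fluvastatin, Prdx6 and Srxn1 were higher in siprdx1 than in siNC. In this comparison 2 of 6 other members rose and 0 fell, where 3.97% of all genes passed. Prdx6, the glutathione-dependent member, held 149, 150.1 and 154 CPM in siprdx1+H2O2+FV, against 132, 132 and 123 CPM in siNC+H2O2+FV. No siprdx1 library overlapped the siNC libraries, and the log2 fold change was 0.23 ± 0.05 (edgeR adjusted p = 0.0131), a rise of 17.2% with a 95% interval of 8.62% to 26.4%. Srxn1 held 782, 757 and 778 CPM in siprdx1+H2O2+FV, against 687, 673 and 649 CPM in siNC+H2O2+FV. These groups did not overlap either, and Srxn1 rose by 0.21 ± 0.05 on the log2 scale (edgeR adjusted p = 0.00977), or 15.4% with an interval of 7.99% to 23.2%. Prdx5 held 353, 367 and 339 CPM in siprdx1+H2O2+FV, against 281, 302 and 353 CPM in siNC+H2O2+FV (log2 fold change 0.18 ± 0.09, edgeR adjusted p = 0.349). Prdx5 shares 409 bp of exon with the opposite-strand Trmt112, which averaged 16.1 CPM in siprdx1+H2O2+FV and 15.3 CPM in siNC+H2O2+FV. Prdx2, Prdx3 and Prdx4 had log2 fold changes of 0.07, 0.09 and -0.09. The Prdx6 call was lost without siprdx1+H2O2+FV replicate 3 (edgeR adjusted p = 0.061) or siNC+H2O2+FV replicate 3 (edgeR adjusted p = 0.0646). The Srxn1 call was lost without siprdx1+H2O2+FV replicate 1 (edgeR adjusted p = 0.0605) and with offsets for GC content and length (edgeR adjusted p = 0.0572).

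**Figure D2:**
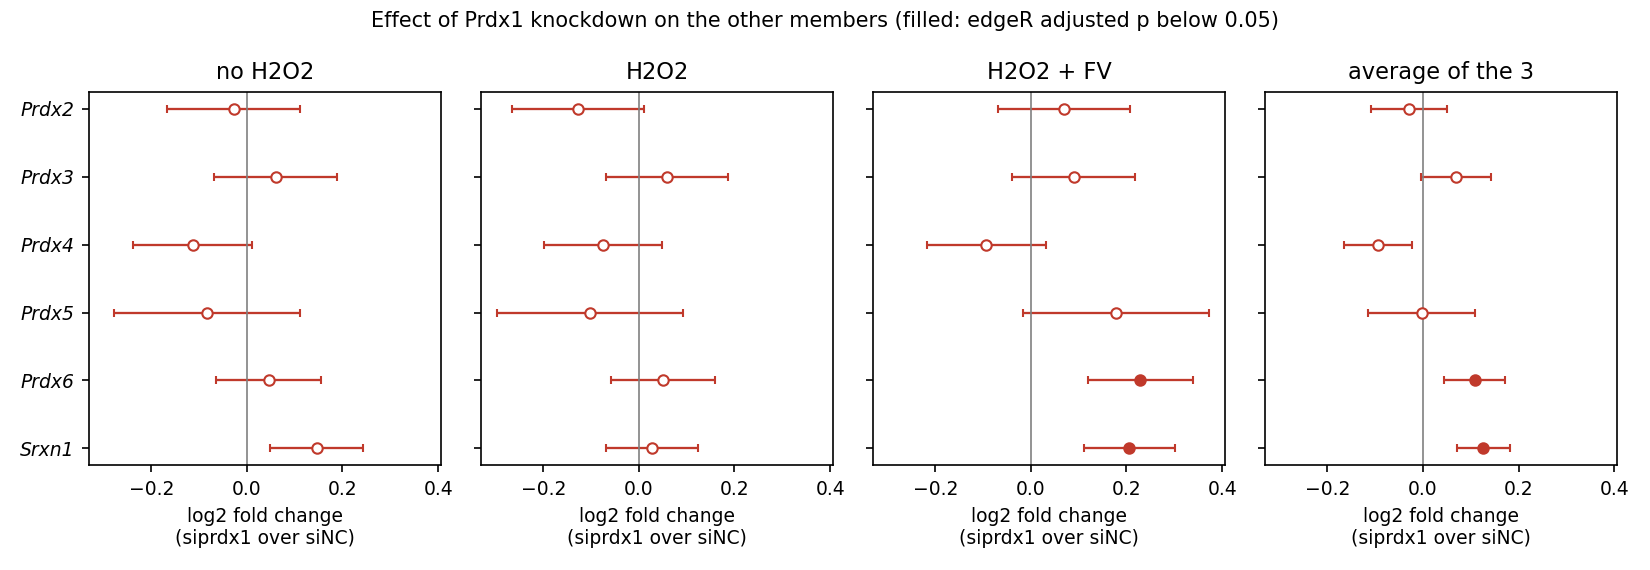
Log2 fold change of siprdx1 over siNC (x axis) with its 95% interval for each member other than Prdx1 (rows), in each treatment and averaged over the 3 treatments. Filled points passed at an edgeR adjusted p below 0.05, which holds for Prdx6 and Srxn1 after H2O2 and fluvastatin and in the average.

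Averaged over the 3 treatments, the same 2 members rose with knockdown. Of the 6 others 2 rose and 0 fell, where 9.38% of all genes passed in either direction. Srxn1 rose by 0.13 ± 0.03 on the log2 scale (edgeR adjusted p = 0.00303), or 9.17%, and the siprdx1 libraries were all above the siNC libraries in 2 of 3 treatments. Prdx6 rose by 0.11 ± 0.03 (edgeR adjusted p = 0.0249), or 7.79%, with the libraries apart in 1 of 3 treatments. Prdx4 had a log2 fold change of -0.09 ± 0.03 (edgeR adjusted p = 0.0949) and a lower mean in all 3 treatments. The upper ends of the 95% intervals limit the average rise of the members that did not pass to 3.62% for Prdx2, 10.4% for Prdx3 and 7.90% for Prdx5, and Prdx4 lies between -10.8% and -1.55%. For Prdx6 and Srxn1 the upper ends of the average were 12.6% and 13.5%. Single treatments allow more. After H2O2 and fluvastatin the upper ends were 15.5% for Prdx2, 16.3% for Prdx3, 2.15% for Prdx4 and 29.5% for Prdx5. Summed fibroblast markers, of which 2 of 6 rose and 3 fell in the average, were 15350, 17960 and 16220 CPM in siprdx1 without H2O2, with H2O2 and with H2O2 and fluvastatin, against 18240, 19350 and 18690 CPM in siNC. Summed Leydig markers, of which 1 of 7 tested rose and 2 fell, were 1081, 1037 and 1352 CPM in siprdx1, against 1154, 1189 and 1487 CPM in siNC. Summed smooth muscle markers, of which 0 of 4 rose and 2 fell, were 1040, 1067 and 1995 CPM in siprdx1, against 1281, 1277 and 2220 CPM in siNC. These 3 sums were lower in every siprdx1 library than in any siNC library of the same treatment. Macrophage markers (0 of 9 rose and 1 fell) summed to 7671, 7995 and 8333 CPM in siprdx1, against 8114, 9240 and 7926 CPM in siNC. Their sums overlapped without H2O2. After H2O2 every siprdx1 library was lower (7870 to 8145 against 8971 to 9660 CPM). After H2O2 and fluvastatin every siprdx1 library was higher (8186 to 8591 against 7864 to 8006 CPM). Endothelial markers (0 of 3 rose and 1 fell) summed to 73.6, 88.4 and 74.7 CPM in siprdx1, against 91.4, 92.6 and 89.2 CPM in siNC. Endothelial sums overlapped after H2O2 only, and were otherwise lower in every siprdx1 library. The part of these markers in the members' values was not tested. The Prdx6 call of the average was lost without the low-count filter (edgeR adjusted p = 0.0605) and without siprdx1 replicate 1, siprdx1+H2O2 replicate 3, siNC+H2O2 replicate 2 or siNC+H2O2+FV replicate 3, where the edgeR adjusted p ran from 0.0551 to 0.0621. Prdx4 passed without siprdx1+H2O2 replicate 1 (edgeR adjusted p = 0.02), without siprdx1+H2O2+FV replicate 3 (edgeR adjusted p = 0.0492) and with GC and length offsets (edgeR adjusted p = 0.00209).

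Set on a common scale per kb of exon, the change in summed Prdx2 to Prdx6 mRNA was small beside the loss of Prdx1. Without H2O2 the sum of Prdx2 to Prdx6 was 351 ± 1.95 CPM per kb in siprdx1 and 360.4 ± 24.7 CPM per kb in siNC (SD, n = 3 each). With H2O2 it was 391 ± 7.83 CPM per kb in siprdx1 and 407 ± 16.0 CPM per kb in siNC. With H2O2 and fluvastatin it was 403 ± 1.84 CPM per kb in siprdx1 and 375 ± 17.1 CPM per kb in siNC, with every siprdx1 library (401 to 405) above every siNC library (364 to 394). The difference in these sums was -9.23, -16.1 and 28.6 CPM per kb over the 3 treatments, beside Prdx1 losses of -283.7, -364 and -316 CPM per kb. The gain of 28.6 CPM per kb equals 9.05% of the Prdx1 loss in that treatment. Its largest part was Prdx5, which did not pass, at 165 CPM per kb in siprdx1 and 145.8 CPM per kb in siNC. Prdx6, which passed, had 31.46 CPM per kb in siprdx1 and 26.85 CPM per kb in siNC. Prdx2 (71.7 against 68.3) and Prdx3 (82.1 against 77.2) were also higher in siprdx1, and Prdx4 (53.0 against 56.5) was lower. Prdx1 to Prdx6 together came to 504, 563 and 581 CPM per kb in siprdx1, against 797, 943 and 869 CPM per kb in siNC, which is 63.2%, 59.7% and 66.9% of the siNC sum. Prdx1 made up 30.3% ± 1.73, 30.6% ± 2.32 and 30.6% ± 0.724 of the family in siprdx1, against 54.8% ± 2.13, 56.8% ± 1.49 and 56.9% ± 1.74 in siNC. Without H2O2, Prdx1 averaged 153 ± 11.9 and Prdx5 132 ± 12.2 CPM per kb in siprdx1 (SD, n = 3), but their order was not the same in every library. In replicate 2 of each siprdx1 group Prdx5 was above Prdx1, at 145.7 against 140.1 CPM per kb without H2O2, 164.6 against 159.3 with H2O2 and 171.6 against 170.6 with H2O2 and fluvastatin, while Prdx1 was above Prdx5 in replicates 1 and 3. In siprdx1, deviations of same-numbered libraries correlated at 0.178, 0.256 and -0.006 for H2O2 in replicates 1, 2 and 3. For fluvastatin these values were 0.12, 0.232 and -0.012. Whether libraries with the same replicate number are independent between treatments is not stated and was not tested. The sums are of mRNA and say nothing of protein.

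**Figure D3:**
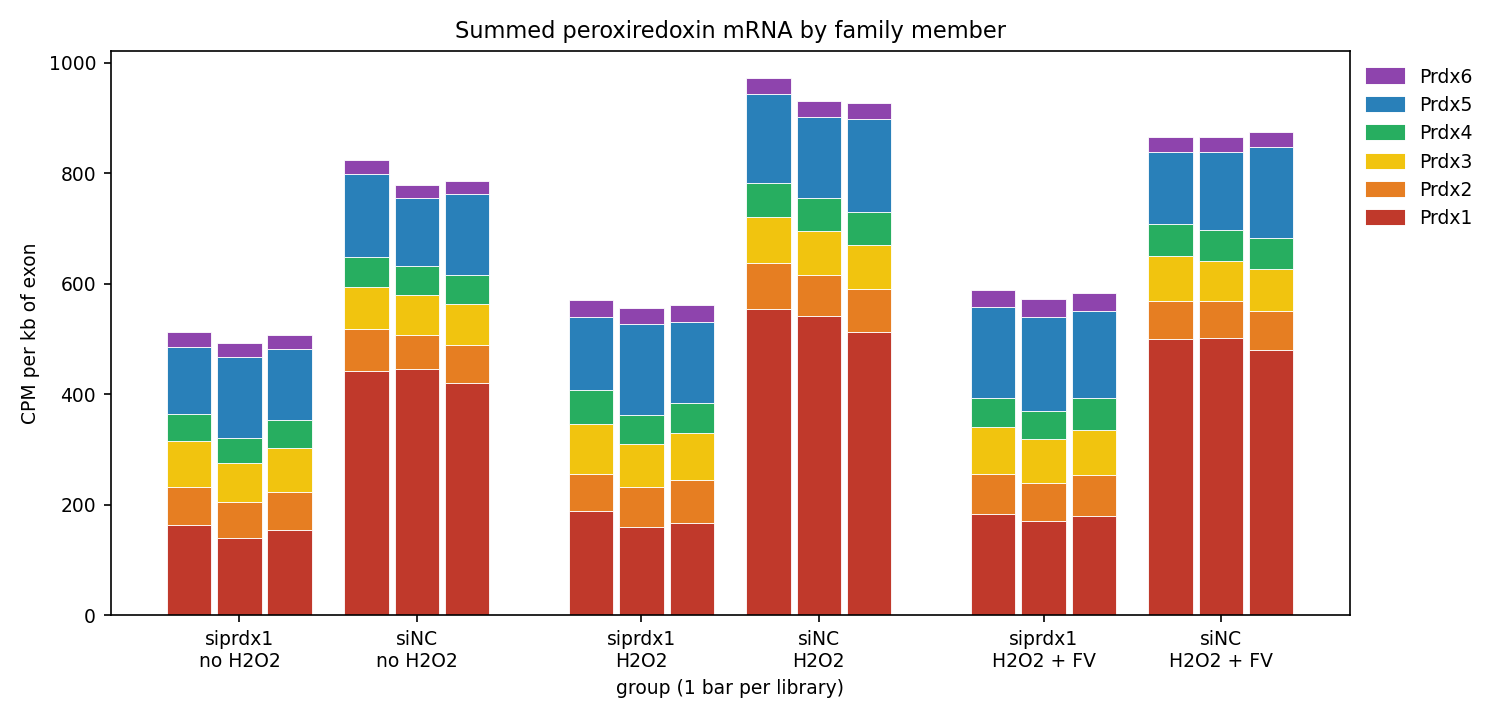
CPM per kb of exon (y axis) stacked over Prdx1 to Prdx6, with 1 bar for each library and the siprdx1 bars left of the siNC bars in each treatment. The Prdx1 segment is shorter in every siprdx1 library than in any siNC library, while the summed height of the other 5 segments stays between 333 and 418 CPM per kb in all 18 libraries.

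H2O2 was followed by higher Prdx1, Prdx6 and Srxn1 in siNC cells. Beside Prdx1, 2 of 6 other members rose between siNC+H2O2 and siNC, and 0 fell, where 6.95% of all genes passed. From the values above, Prdx1 rose by 0.30 ± 0.06 on the log2 scale (edgeR adjusted p = 0.00403), or 22.9%, Prdx6 by 0.25 ± 0.05 (edgeR adjusted p = 0.00461), or 18.9%, and Srxn1 by 0.35 ± 0.05 (edgeR adjusted p = 3.62e-05), or 27.2%. For all 3 genes every siNC+H2O2 library was above every siNC library, which adds little for genes picked by passing the test. How many of all genes were apart in this way was not counted. Prdx6 held 144, 134 and 139.5 CPM in siNC+H2O2, against 117, 115 and 119 CPM in siNC. All 7 log2 fold changes were positive, where the median over all genes tested was 0.008. The 7 values come from the same libraries, so their signs are not independent, and the share of all genes with a positive value was not counted. Prdx4 held 128, 126 and 123 CPM in siNC+H2O2, above the 112, 113 and 109 CPM of siNC, with a log2 fold change of 0.17 ± 0.06 (edgeR adjusted p = 0.0823). Prdx3 held 124, 118.1 and 118.0 CPM in siNC+H2O2, above the 113, 106 and 110.2 CPM of siNC, at 0.13 ± 0.06 (edgeR adjusted p = 0.238). Prdx2 had 0.19 ± 0.07 (edgeR adjusted p = 0.083). With the replicate number as a block common to all 18 libraries, Prdx2 passed (edgeR adjusted p = 0.0451). Beside it Junb averaged 194 CPM in siNC+H2O2 and 43.9 CPM in siNC. Summed macrophage markers, of which 1 of 9 rose, were 9240 ± 368 CPM in siNC+H2O2 and 8114 ± 472 CPM in siNC, and 1 of 4 Sertoli markers rose, with overlapping sums. Their part in these rises was not tested. With GC and length offsets Prdx2 and Prdx4 passed as well (edgeR adjusted p = 0.0282 and 0.032), and Prdx2 passed without the low-count filter (edgeR adjusted p = 0.0456) and without siNC replicate 1 (edgeR adjusted p = 0.0162).

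In siprdx1 cells H2O2 was followed by higher Prdx4, Prdx6 and Srxn1. Of the 6 others 3 rose and 0 fell between siprdx1+H2O2 and siprdx1, where 7.87% of all genes passed. Prdx4 held 129.9, 111 and 116 CPM in siprdx1+H2O2, against 104, 97.9 and 107 CPM in siprdx1, and rose by 0.21 ± 0.06 on the log2 scale (edgeR adjusted p = 0.029). Prdx6 held 148, 136 and 149 CPM in siprdx1+H2O2, against 128, 118 and 116 CPM in siprdx1, and rose by 0.26 ± 0.05 (edgeR adjusted p = 0.00308). Srxn1 rose by 0.23 ± 0.05 (edgeR adjusted p = 0.00285), or 17.1%. None of these 3 pairs of groups overlapped, which adds little for genes picked by passing the test. The share of all genes without overlap was not counted. Of 6 fibroblast markers 3 rose, with sums of 17960 ± 641 CPM in siprdx1+H2O2 and 15350 ± 385 CPM in siprdx1, and of 3 endothelial markers 1 rose, with sums of 88.4 ± 6.28 CPM in siprdx1+H2O2 and 73.6 ± 5.24 CPM in siprdx1 (SD, n = 3 each). Neither sum overlapped between the groups, and the part of these markers in the rises was not tested. The Prdx1 mRNA left by the siRNA had a log2 fold change of 0.17 ± 0.06 (edgeR adjusted p = 0.0932), and its groups overlapped. All 3 calls among the others were lost in a fit of only these groups (edgeR adjusted p = 0.187 for Prdx4, 0.0691 for Prdx6 and 0.0768 for Srxn1), and Prdx4 was lost with library size alone (edgeR adjusted p = 0.0812) and without siprdx1 replicate 1 or 2 or siprdx1+H2O2 replicate 1 or 3 (edgeR adjusted p from 0.0573 to 0.149). Prdx1 passed with GC and length offsets (edgeR adjusted p = 5.45e-06), without the filter (edgeR adjusted p = 0.027), and without siprdx1 replicate 1 (edgeR adjusted p = 0.0492) or siprdx1+H2O2 replicate 2 (edgeR adjusted p = 0.0336), and Prdx5 passed with the offsets (edgeR adjusted p = 0.0201).

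The response of the members to H2O2 did not pass as different between the siRNA arms. For the interaction of H2O2 with knockdown 0 of 6 others passed in edgeR, where 0.243% of all genes did, and 0 of 6 had an unadjusted p under 0.05 or passed in DESeq2. The largest values were those of Prdx1, at -0.12 ± 0.09 (95% interval -0.31 to 0.06), and Srxn1, at -0.12 ± 0.07 (-0.26 to 0.02). A p above the threshold does not show that the arms respond alike, and these intervals give the range of differences that remain possible.

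**Figure D4:**
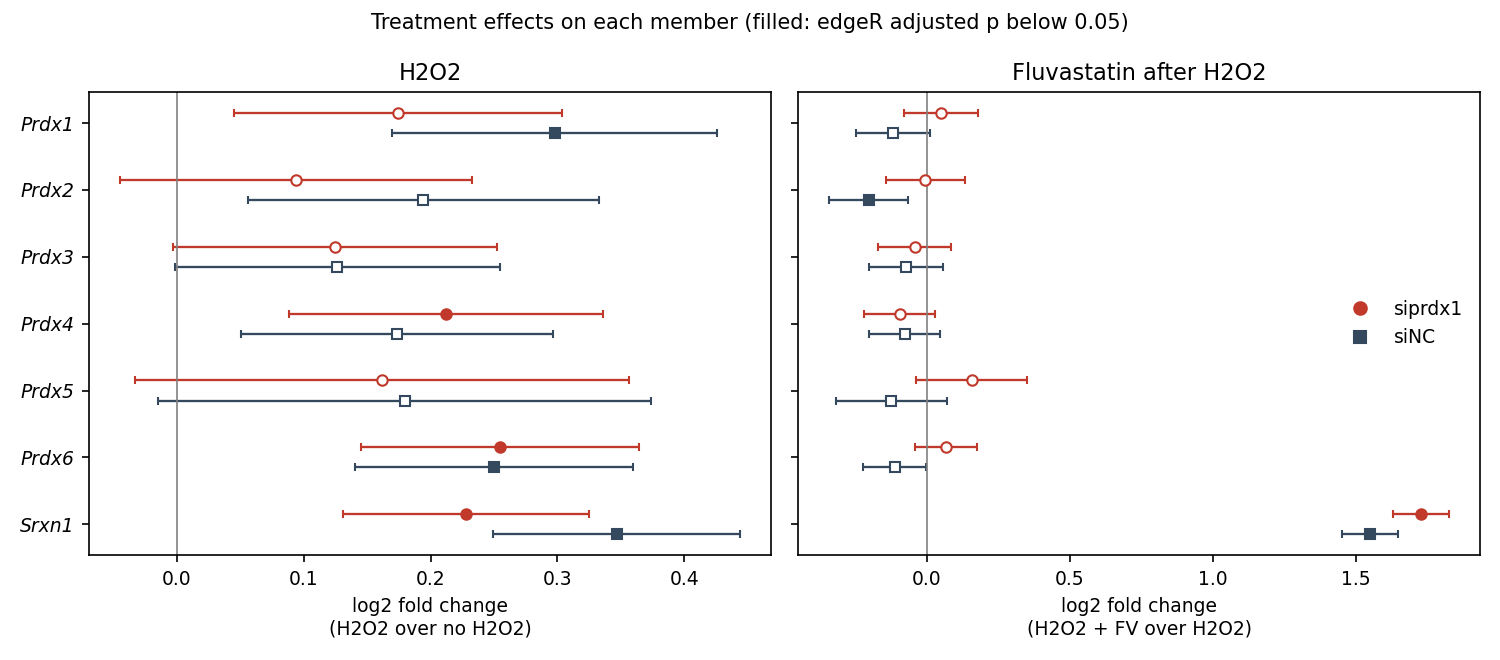
Log2 fold change with its 95% interval (x axis) of each member (rows) for H2O2 over no H2O2 at left and for H2O2 and fluvastatin over H2O2 at right, with siprdx1 as red circles above siNC as blue squares. Filled points passed at an edgeR adjusted p below 0.05, all H2O2 values lie above 0, and under fluvastatin Srxn1 stands apart from the peroxiredoxins at 1.55 or more.

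Fluvastatin after H2O2 was followed by a large rise of Srxn1 in both arms and by little change in the peroxiredoxins. Srxn1 held 782, 757 and 778 CPM in siprdx1+H2O2+FV, against 243, 223 and 234 CPM in siprdx1+H2O2. It held 687, 673 and 649 CPM in siNC+H2O2+FV, against 235, 224 and 228 CPM in siNC+H2O2. Srxn1 rose by 1.73 ± 0.05 on the log2 scale in siprdx1 (edgeR adjusted p = 2.46e-18), or 231%, and by 1.55 ± 0.05 in siNC (edgeR adjusted p = 2.55e-17), or 193%. In siprdx1 it was the 1 of 6 others that passed, where 23.6% of all genes did. In siNC 2 of 6 passed, where 24.9% of all genes did, and the other was Prdx2, which fell. Prdx2 held 207, 202 and 216 CPM in siNC+H2O2+FV, below the 251, 227 and 241 CPM of siNC+H2O2, a log2 fold change of -0.20 ± 0.07 (edgeR adjusted p = 0.0294). In the same groups Junb averaged 353 CPM in siNC+H2O2+FV and 194 CPM in siNC+H2O2, so Prdx2 and its antisense neighbour moved in opposite directions. In siprdx1 Prdx2 held 218, 212 and 226 CPM with fluvastatin, against 204, 220.4 and 234 CPM after H2O2 alone, with overlap. The Prdx2 call in siNC was lost without siNC+H2O2 replicate 1 or 3 or siNC+H2O2+FV replicate 1 or 2, where the edgeR adjusted p ran from 0.0813 to 0.138.

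Some cell type markers passed with fluvastatin too, where 23.6% of all genes passed in siprdx1 and 24.9% in siNC. Several of the counts below are near these shares. In siNC 0 of 9 macrophage markers rose and 5 fell, with sums of 7926 ± 72.9 CPM in siNC+H2O2+FV and 9240 ± 368 CPM in siNC+H2O2, and the libraries did not overlap. In siprdx1 1 of 9 rose and 0 fell, with sums of 8333 ± 224 CPM in siprdx1+H2O2+FV and 7995 ± 139 CPM in siprdx1+H2O2. All 4 smooth muscle markers rose in both arms, with sums of 1995 ± 133 CPM in siprdx1+H2O2+FV against 1067 ± 65.0 CPM in siprdx1+H2O2, and of 2220 ± 76.1 CPM in siNC+H2O2+FV against 1277 ± 46.3 CPM in siNC+H2O2 (SD, n = 3 each). Of 7 tested Leydig markers 2 rose and 1 fell in siprdx1, and 1 rose and 3 fell in siNC. Their sums were 1352 ± 4.94 CPM in siprdx1+H2O2+FV against 1037 ± 33.0 CPM in siprdx1+H2O2, and 1487 ± 27.6 CPM in siNC+H2O2+FV against 1189 ± 7.61 CPM in siNC+H2O2. Fewer markers passed in the other lists, where 2 of 6 fibroblast markers and 1 of 3 endothelial markers fell and 2 of 4 Sertoli markers rose in siprdx1, and 1 of 6, 0 of 3 and 1 of 4 did so in siNC. The part of these markers in the members' values was not tested.

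Prdx1 itself did not pass with fluvastatin in either arm. Its log2 fold change was 0.05 ± 0.06 in siprdx1 (edgeR adjusted p = 0.642) and -0.12 ± 0.06 in siNC (edgeR adjusted p = 0.179), where every siNC+H2O2+FV library was below every siNC+H2O2 library. Prdx6 had 0.07 ± 0.05 in siprdx1 and -0.11 ± 0.05 in siNC (edgeR adjusted p = 0.136). Prdx5 had 0.16 ± 0.09 in siprdx1 and -0.12 ± 0.09 in siNC. Prdx3 and Prdx4 had values of -0.04 and -0.09 in siprdx1 and of -0.07 and -0.08 in siNC. These signs depend on the scaling, since counts scaled by library size alone moved the median of all genes to -0.11 in both arms, and Prdx1 and Prdx6 in siprdx1 then had -0.05 and -0.03, while in siNC Prdx1, Prdx3, Prdx4 and Prdx6 passed as lower, at -0.22, -0.17, -0.18 and -0.21. Prdx4 in siprdx1 passed as lower with that scaling, at -0.20, and with GC and length offsets, at -0.12. Srxn1 still rose under that scaling, by 1.63 in siprdx1 and 1.45 in siNC. With the offsets Prdx1 (-0.18) and Prdx6 (-0.12) in siNC passed as lower (edgeR adjusted p = 2.75e-05 and 0.037).

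For the interaction of fluvastatin with knockdown 0 of 6 others passed in edgeR, where 0.651% of all genes did, and 0 of 6 passed in DESeq2, but 4 of 6 had an unadjusted p under 0.05. The share of all genes with an unadjusted p under 0.05 was not counted, so the 0.651% is no background for these 4. The 4 were Prdx2 at 0.20 ± 0.09, Prdx5 at 0.28 ± 0.13, Prdx6 at 0.18 ± 0.07 and Srxn1 at 0.18 ± 0.07 on the log2 scale, each a larger value in siprdx1 than in siNC (edgeR adjusted p from 0.246 to 0.386). Of the antisense neighbours of Prdx2, Junb had 0.60 ± 0.12 in this interaction (edgeR adjusted p = 0.0166) and Rnaseh2a had -0.03 ± 0.10. The part of their reads in the Prdx2 value was not tested. Prdx1 had 0.17 ± 0.09 (edgeR adjusted p = 0.439) and passed with GC and length offsets (edgeR adjusted p = 0.0386). These values rest on the same fluvastatin libraries as the knockdown comparison after H2O2 and fluvastatin.

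Genes that work with the peroxiredoxins were read from lists. Thioredoxin reductase 1 (Txnrd1), which recharges the thioredoxin used by the peroxiredoxins, rose with knockdown by 0.40 ± 0.04 without H2O2 (edgeR adjusted p = 4.19e-06), by 0.34 ± 0.04 with H2O2 and by 0.24 ± 0.04 with H2O2 and fluvastatin. Of 11 genes that reduce or regulate peroxiredoxins, 2 rose and 3 fell in the average over treatments, where 9.38% of all genes passed, with a median log2 fold change of 0.04 against 0.003 over all genes tested. Gstp1, a glutathione transferase that helps reduce Prdx6, rose by 0.39 ± 0.06 (edgeR adjusted p = 0.000121), though its reads are hard to tell from those of the closely similar Gstp2. The sestrin Sesn1 fell by 0.16 ± 0.03 and the thioredoxin inhibitor Txnip fell by 0.11 ± 0.03 on the log2 scale. Thioredoxin itself, Txn1, had -0.004 ± 0.04 in the average, over values of unlike sign. These were 0.008 ± 0.07 without H2O2, -0.20 ± 0.07 with H2O2 and 0.18 ± 0.07 with H2O2 and fluvastatin (edgeR adjusted p = 0.986, 0.193 and 0.202). With fluvastatin after H2O2, Txn1 rose by 0.32 ± 0.07 in siprdx1 (edgeR adjusted p = 0.0017) and had -0.05 ± 0.07 in siNC. The difference between the arms was 0.37 ± 0.10 (edgeR adjusted p = 0.114). Of 7 other peroxide-removing enzymes that were tested, among them catalase (Cat) and glutathione peroxidases, 0 passed with knockdown in any treatment or in the average in edgeR, where 2.33%, 2.73%, 3.97% and 9.38% of all genes did, and 1, 0, 2 and 1 of the 7 had an unadjusted p under 0.05. After H2O2 in siprdx1 cells 4 of these 7 rose, where 7.87% of all genes passed, among them Cat by 0.19 ± 0.04 and glutathione reductase (Gsr) by 0.26 ± 0.06. In siNC 0 of 7 passed in edgeR, where 6.95% of all genes did, and 3 of 7 had an unadjusted p under 0.05. The difference between the arms passed for 0 of 7, with 0 of 7 at an unadjusted p under 0.05.

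Among 5 tested genes of disulfide formation in the endoplasmic reticulum, where Prdx4 works, the disulfide isomerase Pdia4 rose with knockdown by 0.25 ± 0.03 in the average (edgeR adjusted p = 3.88e-07), against -0.09 ± 0.03 for Prdx4. It was 1 of 5 that passed, where 9.38% of all genes did. With H2O2 in siprdx1, where Prdx4 rose, 3 of these 5 rose, where 7.87% of all genes passed, with the disulfide isomerase P4hb at 0.20 ± 0.05 (edgeR adjusted p = 0.00576). With H2O2 in siNC 1 of 5 rose, where 6.95% of all genes passed, and this was P4hb at 0.16 ± 0.05 (edgeR adjusted p = 0.0309). An unadjusted p under 0.05 was found for 4 of 5, and the share of all genes at that limit was not counted. The difference between the arms passed for 0 of 5 in edgeR, with 0 of 5 at an unadjusted p under 0.05. Among 8 tested genes of H2O2 production 3 rose with knockdown in the average and 0 fell, where 9.38% of all genes passed. They were the monoamine oxidase Maoa at 0.16 ± 0.04 and the superoxide dismutases Sod1 at 0.13 ± 0.03 and Sod2 at 0.12 ± 0.04. Of 6 genes for signalling partners of Prdx1, 0 passed with knockdown in the average in edgeR, where 9.38% of all genes did, and 0 of 6 had an unadjusted p under 0.05.

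Srxn1 was set beside 8 other NRF2 targets. With knockdown in the average 5 of these 8 rose and 1 fell, where 9.38% of all genes passed, with a median log2 fold change of 0.25 against 0.003 over all genes. Nqo1 rose by 0.49 ± 0.04 (edgeR adjusted p = 2.98e-08), Gclc by 0.40 ± 0.03 (edgeR adjusted p = 6.31e-09), Txnrd1 by 0.33 ± 0.02 and Slc7a11 by 0.38 ± 0.07, beside 0.13 ± 0.03 for Srxn1. Hmox1, heme oxygenase 1, fell by 0.16 ± 0.03 (edgeR adjusted p = 0.000905). Under fluvastatin 7 of 8 rose in siprdx1 and 6 of 8 in siNC, and 0 fell, where 23.6% of all genes passed in siprdx1 and 24.9% in siNC, with medians of 1.07 and 1.12 against -0.01 over all genes in both arms. Txnrd1 rose by 1.51 ± 0.04 in siprdx1 and 1.61 ± 0.04 in siNC, and Osgin1 by 1.88 ± 0.10 in siprdx1 and 1.63 ± 0.10 in siNC, beside 1.73 ± 0.05 in siprdx1 and 1.55 ± 0.05 in siNC for Srxn1. Of 6 NRF2 regulators 0 passed with knockdown in the average in edgeR, where 9.38% of all genes did, and 2 of 6 had an unadjusted p under 0.05. Under fluvastatin 5 rose and 1 fell in each arm, beside the same 23.6% and 24.9% of all genes. The small Maf protein gene Maff rose by 3.00 ± 0.07 in siprdx1 and 2.75 ± 0.07 in siNC, the repressor gene Bach1 by 0.85 ± 0.06 in siprdx1 and 1.08 ± 0.06 in siNC, and Keap1, the NRF2 inhibitor, fell by 0.28 ± 0.07 in siprdx1 and fell by 0.33 ± 0.07 in siNC.

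**Figure D5:**
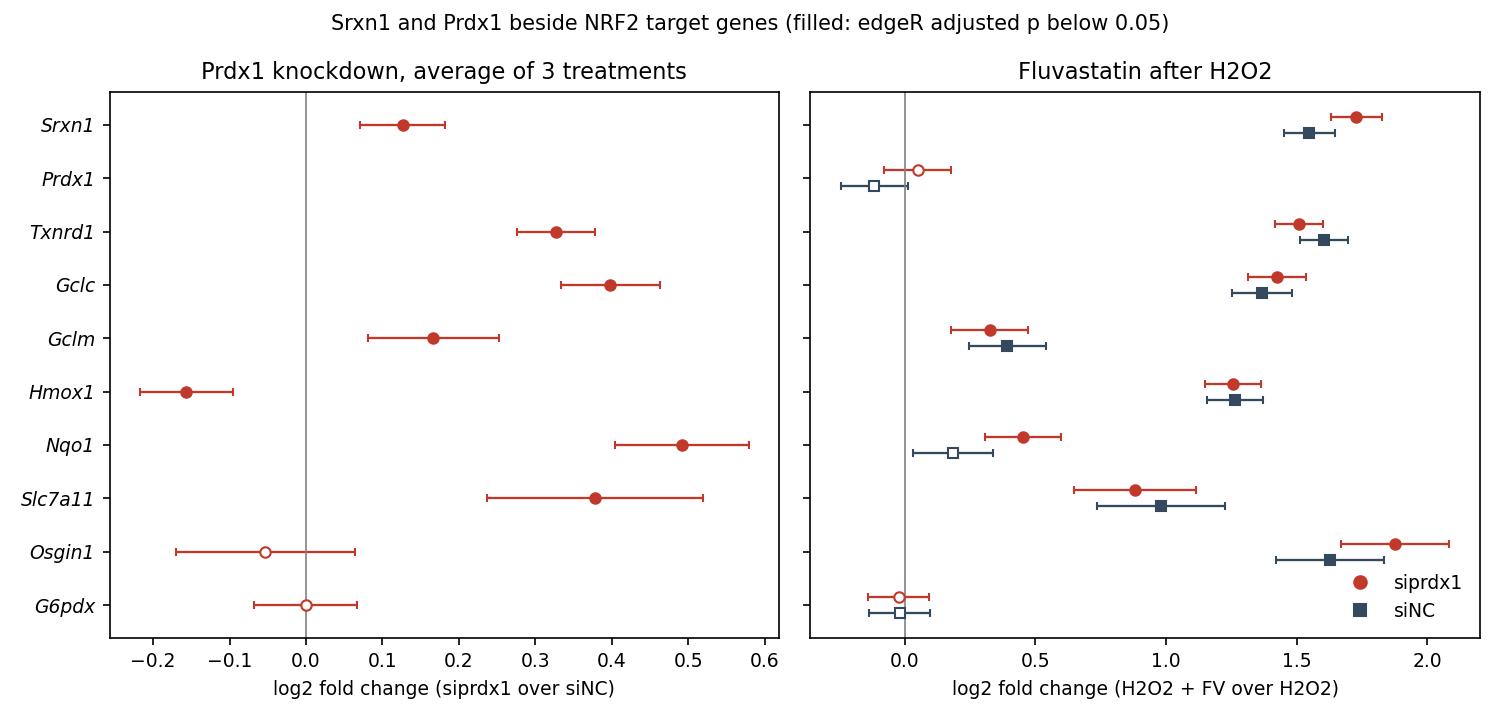
Log2 fold change with its 95% interval (x axis) of Srxn1, Prdx1 and 8 NRF2 target genes (rows), for siprdx1 over siNC averaged over treatments at left, where the silenced Prdx1 is left out, and for H2O2 and fluvastatin over H2O2 at right, with siprdx1 as red circles and siNC as blue squares. Filled points passed at an edgeR adjusted p below 0.05, and at right Srxn1 lies with Txnrd1, Gclc, Hmox1 and Osgin1 above 1.2 while Prdx1 lies near 0.

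The genes whose log2 CPM ran most like each member over the 18 libraries were sought among 9575 genes averaging at least 10 CPM. The libraries share their groups and scaling, so these correlations describe the design as much as the genes. Srxn1 ran most like Klf10 (Pearson r = 0.995), Itpkc (0.994) and Arl4c (0.993), which all have their high values in the fluvastatin groups. Prdx1 ran most like Mpeg1, a macrophage gene (r = 0.969), and the matrix genes Eln (0.967) and Col5a2 (0.951). With the group means taken off, Mpeg1 kept an r of 0.892 with Prdx1, while Eln had -0.47. Prdx5 ran most like the ferritin gene Fth1 (r = 0.978), and kept 0.973 within groups. Prdx6 ran most like Pdia6 (0.946), Prdx3 like Sar1b (0.935), Prdx4 like Lipa (0.92) and Prdx2 like Prelid1 (0.907). Within groups, Prdx5 ran against most of the family, with r = -0.73 to Prdx1 and -0.59 to Prdx4, while Prdx6 and Srxn1 ran together at 0.85.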

How the data were processed

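Poly(A) RNA was sequenced as stranded, paired-end libraries, per the labels' protocols. Raw counts of reads per gene were deposited by the authors as 1 table with 18 library columns and 0 others. The submitters' processing notes name HISAT2, HTSeq and mm10. The annotation and strand setting are not given in the sources used here. Coordinates and lengths came from GENCODE M21 (GRCm38), which held 55227 of 55487 gene IDs.

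From the deposited counts, edgeR 4.0.16 (R 4.3.3) with TMM scaling and filterByExpr (16432 genes) gave 1 robust quasi-likelihood fit of 6 group means with 12 residual degrees of freedom, a common biological coefficient of variation of 7.01% and 10 contrasts. The threshold was a Benjamini-Hochberg adjusted p of 0.05 over all genes tested, and intervals are 95% intervals of the fit. Shares of all genes are at this adjusted threshold. No share was counted to set beside the counts at an unadjusted p under 0.05 or beside groups that did not overlap. The fit was tested on simulated data. Log2 CPM used a prior count of 2. Copies of members were found with blastn 2.17.0 (identity of 90% or above, 200 bp or longer). Named genes were the members, their copies, up to 4 passing genes per list and contrast with the smallest p, and the 3 genes most like each member, and a few more were named after their values were seen (Txn1, Keap1, Hmox1 under knockdown, Junb, Rnaseh2a, Trmt112 and cell type markers). The members and lists were chosen with earlier results of these data known. Same-numbered libraries had correlated deviations above 0.1 in all 3 pairs for H2O2 in siNC only (0.135, 0.135 and 0.118), a pairing from the data and not from the labels. In part of the pairs the correlations were larger elsewhere. They were 0.178, 0.256 and -0.006 for H2O2 in siprdx1 and 0.12, 0.232 and -0.012 for fluvastatin in siprdx1. Alternatives were RLE size factors, library size alone, no filter, the replicate block, only the groups compared, DESeq2 1.42.0, longest transcripts, each library left out and, chosen after seeing the data, GC and length offsets.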

Additional observations from a re-analysis of the deposited data

How the results depend on the processing

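Prdx1 kept its knockdown call and direction in all fits, and so did Srxn1 under fluvastatin in both arms and under H2O2 in siNC. Counts of the 6 other members that passed moved as follows. For knockdown without H2O2 the count of 0 became 1 with library size alone and 1 with DESeq2. After H2O2 and fluvastatin 2 became 1 with GC and length offsets and ranged from 1 to 2 when each library was left out. In the average 2 became 1 without the filter and 3 with the offsets, and ranged from 1 to 3. For H2O2 in siNC 2 became 3 without the filter and 4 with the offsets, and ranged from 2 to 3. For H2O2 in siprdx1 3 became 2 with library size alone, 0 with only the groups compared and 4 with the offsets, and ranged from 2 to 3. For fluvastatin in siNC 2 became 5 with library size alone and 3 with the offsets, and ranged from 1 to 2, and in siprdx1 1 became 2 with library size alone and 2 with the offsets. With the replicate block the count was 3 for H2O2 in siNC, where Prdx2 was added, and no other count moved. Prdx1 under H2O2 in siprdx1 passed with the block (edgeR adjusted p = 0.0429), where replicates 1 and 2 deviated together but replicate 3 did not. Per kb of the longest transcript the Prdx1 share was 28.48%, 28.97% in siprdx1 without H2O2 and with H2O2 and fluvastatin, against 52.56%, 54.54% and 54.66% in siNC without H2O2, with H2O2 and with H2O2 and fluvastatin. Over all genes, the calls for knockdown without H2O2, after H2O2 and after H2O2 and fluvastatin numbered 383, 448 and 652, became 858, 1325 and 1156 with the offsets and fell to as few as 204, 227 and 320 without 1 library. With only the groups compared the first and second were 193 and 183. The offsets also gave 2752 against 1542 for the average, 1986 against 1142 for H2O2 in siNC and 2939 against 1293 for H2O2 in siprdx1, where 1 library fewer gave as few as 646 and 817, and only the groups compared gave 638 in siprdx1. The H2O2 interaction had 40 calls, against 97 without the filter, 24, 69 and 200 with only the groups compared, DESeq2 and the offsets, and as few as 26 without 1 library. The fluvastatin interaction had 107, against 281 without the filter, 206 with DESeq2, 363 with the offsets and as few as 55.

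Log2 fold changes that changed sign were small and none had passed. With library size alone they were Prdx2 under knockdown without H2O2 (0.0078), Prdx5 in the average (0.019), Prdx1 (-0.052) and Prdx6 (-0.035) under fluvastatin in siprdx1, and Prdx6 in the H2O2 interaction (-0.015). With only the groups compared they were Prdx2 under fluvastatin in siprdx1 (0.00097) and Prdx6 in the H2O2 interaction (-0.0038), and without the filter Prdx3 in the H2O2 interaction (0.0037). With the offsets they were Prdx1 under fluvastatin in siprdx1 (-0.012) and Prdx3 (0.028) and Prdx5 (0.019) in the H2O2 interaction. Leaving out each library gave ranges of -0.10 to 0.051 for Prdx2 under knockdown without H2O2, -0.0024 to 0.059 for Srxn1 after H2O2 and -0.031 to 0.031 for Prdx5 in the average. Under fluvastatin in siprdx1 the ranges were -0.0038 to 0.13 for Prdx1, -0.052 to 0.044 for Prdx2 and -0.087 to 0.0049 for Prdx3. In the H2O2 interaction they were -0.065 to 0.046 for Prdx3, -0.027 to 0.086 for Prdx4, -0.10 to 0.069 for Prdx5 and -0.020 to 0.047 for Prdx6, and in the fluvastatin interaction -0.015 to 0.073 for Prdx3 and -0.073 to 0.048 for Prdx4. The cause was not tested for any of these. Each member had at least 1705 counts per library. The parts of counting and of the spread between cultures in these tests were not tested.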
